A study of Mus musculus with 19 samples.

Results

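Kidney and liver of wild-type male mice were compared through 9 libraries of poly(A)-selected RNA, 5 from kidney and 4 from liver, chosen from the 19 libraries of the series by the tissue and the genotype in their labels. The series set mice lacking macroH2A1.1, a splice isoform of the histone variant encoded by H2afy, against wild-type mice, and the other 10 libraries came from 5 knockout kidneys and 5 knockout livers. All mice carried a C57BL/6J background after at least 10 generations of backcrossing, and wild types and knockouts came from matings of heterozygotes. Kidney libraries bear the mouse numbers 19, 20, 22, 23 and 24, and liver libraries the numbers 19, 20, 22 and 24, so a kidney and a liver with the same number were read as 1 animal. Whole homogenized tissue was used, so each library mixes all cell types of its organ. The age of the mice, and which of them ate a standard or a ketogenic diet, were not given in the sources used here.

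The kidney filters blood, and its tubules then reclaim salt, phosphate, glucose, amino acids and water in a fixed order of segments: proximal tubule, thick ascending limb, distal convoluted tubule and collecting duct. The liver secretes most plasma proteins, makes bile acids and urea, and stores and releases glucose. Both organs make new glucose and oxidise fatty acids, and several metabolic steps that they share are carried out by products of different genes in each.

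Library totals ran from 27525607 to 35131720 counts in kidney and from 26084473 to 33749365 counts in liver. Levels are given below as RPKM, meaning counts-per-million (CPM) per kilobase of exon, after scaling by the trimmed mean of M-values (TMM). The number of libraries is 5 for every kidney mean and 4 for every liver mean, and errors after ± are SD. Fold changes are kidney over liver on the log2 scale, so negative values are higher in liver. They come from the quasi-likelihood test of edgeR with Benjamini-Hochberg adjustment over 17428 genes tested. The labels never state outright that each library of a tissue is a separate animal, and the p-values therefore reflect only library-to-library spread, which may be technical. In the kidney of mouse 24, H2afy stood at 63.8 CPM (unscaled) against 82.9 to 89.7 in the other wild-type kidneys and 48.4 to 61.8 in the knockout kidneys. The liver of mouse 24 had 53.0 against 74.9 to 86.7 in the other wild-type livers and 44.5 to 52.6 in the knockout livers. The libraries labelled wild type 24 were kept, and the leading counts are also given without them.

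Alb, which encodes serum albumin (chr5:90460897-90476602, GRCm38), and Umod, which encodes uromodulin of the thick ascending limb (chr7:119462711-119479282), matched the tissue labels in all 9 libraries. Alb stood at 37881, 37439, 36699 and 39211 RPKM in the liver libraries and at 3.02, 2.15, 2.40, 1.67 and 2.11 RPKM in the kidney libraries. Umod stood at 779, 555, 633, 538 and 907 RPKM in the kidney libraries, and no liver library held a count of it. Against a floor of 3 counts over the liver libraries, Umod was at least 54600-fold higher in kidney.

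Of the 17428 genes tested, 13148 (75.4%) differed between the organs at an adjusted p under 0.05. Of these, 7244 (41.6% of those tested) were higher in kidney and 5904 (33.9%) in liver. The kidney and liver libraries did not overlap for 11552 genes (66.3%). Because most genes differed, a size rule was added, a difference of 8-fold or more: 3209 genes (18.4%) met it, 2236 (12.8%) higher in kidney and 973 (5.58%) higher in liver. Without mouse 24 the counts were 12995 genes called and 3329 at 8-fold. In the knockout kidneys and livers, which the wild-type test did not use, 11525 of the 13148 genes (87.7%) were called in the same direction and 3 in the opposite one. Of the 3209 genes at 8-fold, 2938 (91.6%) were called the same way there and 0 the opposite way. The knockout test covered only 12650 of the 13148 genes and 2942 of the 3209, so untested genes lower both shares. The knockout libraries had calls for 12411 of 16823 genes tested (73.8%), 6701 (39.8%) higher in kidney and 5710 (33.9%) in liver, and for 3025 (18%) at 8-fold, 2049 (12.2%) in kidney and 976 (5.8%) in liver.

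The direction of small differences depended on scaling. TMM factors were 1.29 to 1.33 in kidney and 0.707 to 0.717 in liver, and scaling by library totals in their place moved the median log2 fold change of all genes by 0.89 toward kidney. With library totals 12527 genes (71.9%) were higher in kidney and 2344 (13.4%) in liver. DESeq2 size factors moved the median by -0.02 and upper-quartile scaling by 0.11.

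**Figure D1:**
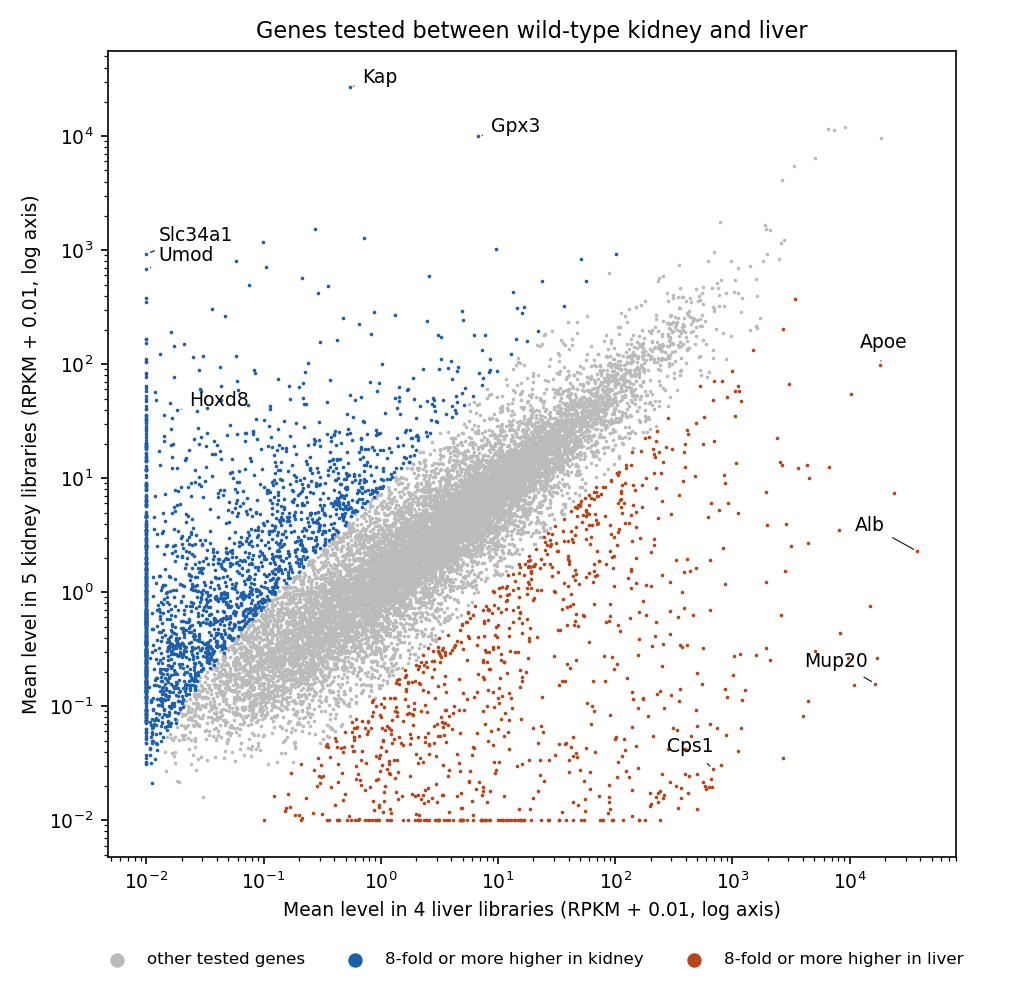
Mean level in the 5 kidney libraries against mean level in the 4 liver libraries, in RPKM plus 0.01 on log axes, with 1 point per tested gene. Blue points are the 2236 genes at 8-fold or more in kidney and red points the 973 in liver; Umod and Slc34a1 lie on the left edge, at 0 counts in liver.

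A few genes took a large part of each library, and the liver was the more concentrated of the organs. The 10 most abundant genes held 13.9% ± 0.643 of counts in kidney and 18.9% ± 0.543 in liver. The gap of -5.0 percentage points, kidney minus liver, became -10.2 without mitochondrial and haemoglobin genes. Alb alone held 6.28% ± 0.152 of liver counts, followed by Apoe with 2.77% ± 0.390. Kap, an androgen-regulated protein of the proximal tubule, led the kidney with 2.49% ± 0.0816, beside Gpx3, the plasma glutathione peroxidase, with 2.37% ± 0.155. Genes of the mitochondrial genome held 8.39% ± 0.913 of kidney counts and 3.14% ± 0.488 of liver counts. At 1 CPM or more, without TMM factors, there were 14471 ± 213 genes in kidney and 12179 ± 82.6 in liver. The gap of 2292 genes shrank to 1069 with TMM-scaled CPM. Each of these 3 measures separated all kidney from all liver libraries, with p = 0.00794 in an exact two-sided permutation test over 126 arrangements, the smallest p they can give, and 0.00794 after adjustment over the 3. This test treated all libraries as independent and did not use the shared mouse numbers.

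Among the most abundant genes at 8-fold or more in kidney, Kap stood at 26789 ± 784 RPKM against 0.533 ± 0.723 in liver. Gpx3 followed with 9942 ± 760 against 6.77 ± 1.72, then Klk1, tissue kallikrein, with 1549 ± 83.2 against 0.263 ± 0.233, and S100g, the small calcium-binding protein of the distal tubule, with 1280 ± 125 against 0.704 ± 0.791. Miox, which opens the ring of inositol, stood at 1170 ± 73.0 in kidney. Cyp4b1, a cytochrome P450, stood at 1029 ± 131, and Igfbp7, which binds insulin-like growth factors, at 934 ± 57.8. Acy3, an aminoacylase, stood at 830 ± 74.9, and Cltrn, a partner of apical amino acid transporters, at 799 ± 51.6. Igfbp7 was the nearest of these to the liver, where it stood at 102 ± 10.9 RPKM.

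Genes of every nephron segment examined were kidney genes. The 23 measured genes of proximal tubule uptake and transport were all higher in kidney, against 41.6% of all tested genes, and 20 of them were at 8-fold, against 12.8%. Their median log2 fold change was 12.76, beside 0.14 over all tested genes. Slc34a1, the main sodium-phosphate cotransporter, was measured at 1014, 896, 947, 908 and 887 RPKM in kidney, and the 4 liver libraries held no count of it. It was at least 126000-fold higher in kidney. Napsa, an aspartic protease, stood at 482 ± 42.5 RPKM against 0.341 ± 0.0469, and Ggt1, which splits glutathione at the brush border, at 264 ± 23.3 against 0.0369 ± 0.0205. Aqp1, the water channel of the proximal tubule, was shared more than these: it stood at 235 ± 17.3 in kidney and 39.5 ± 5.47 in liver (log2 fold change 2.57 ± 0.11 SE, adjusted p = 2.23e-11).

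Further along the tubule, the 12 measured genes of the thick ascending limb were all higher in kidney at 8-fold, and their summed level was 982 to 1446 RPKM in kidney and 0.0901 to 0.174 in liver. Slc12a1, the cotransporter blocked by loop diuretics, stood at 144 ± 14.7 RPKM in kidney with 3 counts in all liver libraries together. Egf, the epidermal growth factor made in this segment, stood at 89.0 ± 8.13 against 0.0729 ± 0.0224. All 10 genes of the distal convoluted and connecting tubule were higher in kidney, 9 at 8-fold. Calb1, the calcium buffer calbindin, stood at 82.8 ± 6.88 RPKM with no count in liver, at least 11600-fold higher in kidney.

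In the collecting duct, all 10 tested genes of principal cells and all 12 of intercalated cells were higher in kidney, 9 and 11 of them at 8-fold. Aqp2, the vasopressin-regulated water channel, stood at 168 ± 16.4 RPKM and was at least 6900-fold higher in kidney. Rhcg, an ammonia channel, stood at 40.5 ± 3.36 and was at least 2620-fold higher. Atp6v0a4, a proton pump subunit of intercalated cells, stood at 29.4 ± 3.89 against 0.0417 ± 0.0311 in liver. In the glomerulus, 10 of 12 podocyte genes were higher in kidney and 2 in liver, and with library totals 10 and 0.

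The liver's secreted proteins gave the opposite picture. All 25 plasma carriers and protease inhibitors, 12 of 13 apolipoprotein genes, 22 of 26 coagulation and fibrinolysis genes and 22 of 24 complement genes were higher in liver, against 33.9% of all tested genes. At 8-fold in liver the counts were 25, 11, 18 and 16, against 5.58% of all tested genes. After Alb, the highest levels among genes at 8-fold in liver were those of Apoa2 at 24016 ± 3584 RPKM, Apoe at 18245 ± 2583, Mup3 at 17126 ± 2471, Mup20 at 16512 ± 5403 and Apoa1 at 14910 ± 2429. Mup3 and Mup20, major urinary proteins that carry pheromones, belong to a family of similar genes. The split of reads within the family is uncertain, as it is for Serpina1e and Serpina3k. All 18 tested Mup genes were higher in liver at 8-fold.

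The exceptions within these lists were kidney genes. Plau, urokinase, stood at 223 ± 41.1 RPKM in kidney and 0.638 ± 0.0999 in liver (log2 fold change 8.43 ± 0.19 SE, adjusted p = 1.20e-14). Apod, a lipid-binding apolipoprotein, stood at 0.674 ± 0.228 in kidney with 3 counts in all liver libraries together. Cfd, complement factor D or adipsin, which fat cells make in quantity, stood at 107, 253, 125, 283 and 153 RPKM in kidney and at 0.0455, 2.12, 0.368 and 0.705 in liver. The adipocyte hormone gene Adipoq stood in the same kidneys at 7.65, 20.5, 12.4, 20.7 and 12.4 RPKM. The kidneys of mice 20 and 23 were the highest for both genes. All 6 adipose genes were higher in kidney, with a summed level of 93.6 to 150 RPKM against 5.75 to 8.35 in liver. Most of this sum in every kidney library came from Lpl alone. Lpl stood at 94.7 ± 10.9 RPKM in kidney and 4.57 ± 1.12 in liver. The part of fat cells in the level of Cfd was not tested.

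For secreted and segment genes at 8-fold, the RNA level in the other organ was also read. A low level there follows in part from the 8-fold rule that chose these genes. For the 70 plasma, apolipoprotein, coagulation and complement genes at 8-fold in liver, the median level in a kidney library was 0.0696% to 0.0841% of the liver mean. The genes did not share 1 ratio. Alb stood in kidney at 0.00442% to 0.00799% of its liver level, while Ttr, transthyretin, stood at 0.417% to 0.677%. For the 68 segment genes at 8-fold in kidney, the median in a liver library was 0% to 0.00235% of the kidney mean, and 34 to 39 of them had no count there.

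A run of letters beside the albumin start was looked for upstream of other genes. The promoter windows of RefSeq (250 bases before each start, GRCm38.p6) were searched on both strands for the letters GTTAATNAT. They were found in 23 of 866 windows (2.66%) of genes at 8-fold in liver, in 19 of 1890 windows (1.01%) of genes at 8-fold in kidney, in 48 of 12898 windows (0.372%) of other tested genes and in 0.737% of all 32851 windows. The letters CAAAGTCCA, a core of HNF4 sites, were in 1.85% of liver windows, 0.423% of kidney windows and 0.349% of the others. The letters TATAAA were in 10.3%, 5.98% and 3.79%. The C/EBP palindrome TTGCGCAA was in 0.231%, 0.106% and 0.256%, and the letters TCAAGGTCA, read by ESRR factors, in 0.462%, 0.106% and 0.287%. None of these 5 motifs contains another. Windows also differed in composition, with a median ratio of observed to expected CpG of 0.281 in liver, 0.430 in kidney and 0.705 in the other windows, whose part in these shares was not tested. A match is a description of the letters only.

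The stretches around the match are shown for the 5 most abundant genes of each tissue, among the windows reported here that hold it. Some windows are not reported here and did not enter the ranking. The stretches show where the shared letters lie before the starts of Alb and of its kidney counterparts. Each is written 5′ to 3′ along the gene's strand, with the match in capitals, and every match lies on the gene's strand or its complement.
Alb, liver, chr5:90460818-90460866, plus strand: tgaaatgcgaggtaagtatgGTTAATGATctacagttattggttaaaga
Gc, liver, chr5:89457922-89457970, minus strand: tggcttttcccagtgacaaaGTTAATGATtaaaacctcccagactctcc
Fga, liver, chr3:83026087-83026135, plus strand: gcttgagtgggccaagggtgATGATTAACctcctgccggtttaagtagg
Pzp, liver, chr6:128526894-128526942, minus strand: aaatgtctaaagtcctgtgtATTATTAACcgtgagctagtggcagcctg
Cfhr2, liver, chr1:139858781-139858829, minus strand: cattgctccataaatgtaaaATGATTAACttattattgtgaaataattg
Cltrn, kidney, chrX:164090113-164090161, plus strand: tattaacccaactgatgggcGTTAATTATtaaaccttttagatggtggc
Kcnj16, kidney, chr11:110967996-110968032, plus strand: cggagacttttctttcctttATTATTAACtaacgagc
Atp6v0a4, kidney, chr6:38124620-38124668, minus strand: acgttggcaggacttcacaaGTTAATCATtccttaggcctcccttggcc
Gm4450, kidney, chr3:98457127-98457175, minus strand: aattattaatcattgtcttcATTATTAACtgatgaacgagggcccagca
Gm10804, kidney, chr2:93452716-93452764, plus strand: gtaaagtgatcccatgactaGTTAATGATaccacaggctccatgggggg

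In Alb the match begins 32 bases before the start, in Gc, the vitamin D-binding protein, 52, and in Fga, a fibrinogen chain, 46. Among the kidney genes it begins 54 bases before the start of Cltrn, 62 before Atp6v0a4 and 17 before Kcnj16, a potassium channel subunit. Pzp, a protease inhibitor, has its match farther away, 202 bases before the start.

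Hnf4a, a nuclear receptor that binds HNF4 sites, was present as RNA in both organs. It was measured at 128, 118, 108, 108 and 136 RPKM in kidney and at 135, 130, 197 and 117 in liver, and the libraries overlapped (log2 fold change -0.28 ± 0.14 SE, adjusted p = 0.0850). With library totals the value was 0.61, and leaving out a single mouse gave values from -0.42 without mouse 24 (adjusted p = 0.0198) to -0.05 without mouse 22 (adjusted p = 0.676).

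Of 16 transcription factors that textbooks link to hepatocytes or to tubules, 12 were higher in liver, 11 of them at 8-fold, 3 were higher in kidney and 1 was not called. Cebpa, a factor of metabolic gene expression, stood at 306 ± 23.4 RPKM in liver and 18.1 ± 1.81 in kidney (log2 fold change -4.08 ± 0.10 SE, adjusted p = 3.88e-14). The pioneer factors Foxa2 and Foxa3 stood at 22.9 ± 9.16 and 46.0 ± 9.20 in liver, and at 0.0238 ± 0.0217 and 0.0291 ± 0.0296 in kidney. Onecut2 stood at 4.92 ± 0.951 in liver and had no count in kidney, at least 5520-fold higher in liver. Hnf4g, a relative of Hnf4a, went the other way, with 1.36 ± 0.313 in kidney and 4 counts in all liver libraries together.

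All 22 tested transcription factors of kidney development and of its segments were higher in kidney, 21 at 8-fold. Emx1, a homeobox factor, stood at 19.2 ± 2.64 RPKM and was at least 1220-fold higher. Irx3, another homeobox factor, stood at 19.2 ± 4.18 against 0.171 ± 0.120, and Tfcp2l1, a factor of the collecting duct, at 24.9 ± 2.33 against 0.541 ± 0.0771. Pax2, which the developing kidney needs, stood at 6.25 ± 0.373 with no count in liver, at least 978-fold higher. Foxi1, the factor of intercalated cells, was at least 604-fold higher.

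Hox genes, which set position along the body axis in the embryo and stay expressed in adult tissue, were kidney genes here. All 31 tested Hox genes were higher in kidney under TMM and under library totals alike, and 26 of them were at 8-fold under TMM. Their summed level was 211 to 229 RPKM in kidney and 3.00 to 4.42 in liver. The highest was Hoxd8, at 39.4, 39.9, 35, 38 and 45.2 RPKM in kidney, with 2 counts in all liver libraries together. Hoxb6 stood at 19.7, 21.1, 18.4, 20.0 and 20.6 in kidney and at 0.171, 0.194, 0.238 and 0.441 in liver. For both genes the lowest kidney library was far above the highest liver library, with an adjusted p of 2.49e-15 and 1.69e-13.

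The liver did hold some Hox RNA, and it came from genes with low numbers in the clusters. Of the 18 tested genes of paralog groups 6 to 11, all were at 8-fold and 11 had no count in liver. Of the 13 tested genes of groups 1 to 5, 8 were at 8-fold and 1 had no count in liver. The median log2 fold change was 9.73 in groups 6 to 11 and 3.46 in groups 1 to 5. The highest Hox level in liver was that of Hoxb4, at 1.32 ± 0.180 RPKM, followed by Hoxa5 at 0.641 ± 0.178 and Hoxb5 at 0.562 ± 0.129. In kidney the same genes stood at 10.2 ± 1.78, 7.76 ± 0.861 and 3.90 ± 0.325. In clusters C and D no tested gene exceeded a mean of 0.0348 RPKM in liver. Hoxa13 and Hoxd1 were too low to be tested, with 3 and 10 counts in kidney and 0 in liver.

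**Figure D2:**
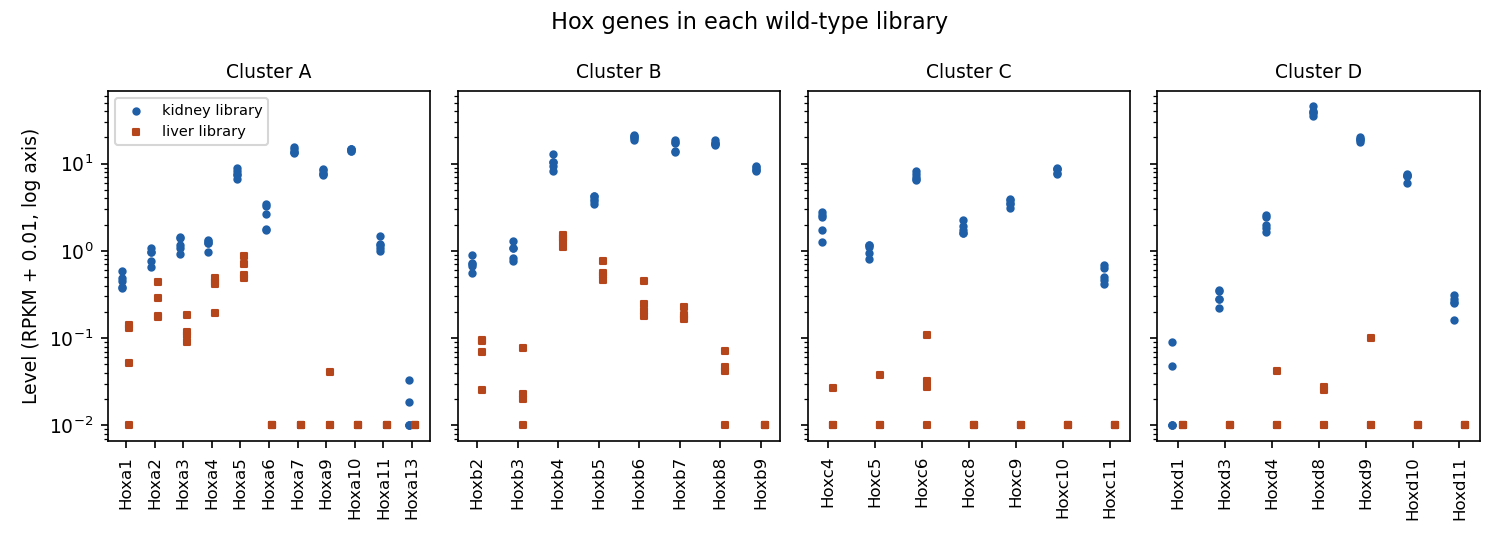
Level of each measured Hox gene in the 5 kidney libraries (blue circles) and the 4 liver libraries (red squares), in RPKM plus 0.01 on a log axis, by cluster and in order of paralog number. Liver values leave the floor mainly at the low-numbered genes of clusters A and B, with Hoxb4 the highest at a mean of 1.32.

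Many pairs of related genes differed in RNA level in opposite directions between the organs. Not all pairs are forms for 1 metabolic step: Hsd11b1 and Hsd11b2 catalyse opposite reactions, and Fxyd1 and Fxyd2 regulate a pump. Of 25 such textbook pairs, 23 could be compared, and 17 of them crossed: the form assigned to liver was higher in liver and the form assigned to kidney was higher in kidney. Among all tested genes 33.9% were higher in liver and 41.6% in kidney, which are shares of single genes and not of pairs. How often other pairs cross was not computed. The pairs were chosen with earlier results of these data known, so their count is a description only. In 9 pairs both genes crossed at 8-fold. In 16 pairs the dominant gene, per length, was a different one in each organ. With library totals 15 pairs crossed, the pair Glyat with Keg1 being among those lost. Without mouse 20, 23 or 24 there were 16, the same pair being lost. With the mouse number as a block there were 17, because Glyat was no longer called (adjusted p = 0.0636) and Abcc2 was (log2 fold change -0.37, adjusted p = 0.000792).

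Gls2, the liver glutaminase, which frees ammonia from glutamine, lies at chr10:128194457-128210004. It stood at 139, 128, 160 and 125 RPKM in liver and at 0.0874, 0.0246, 0.0614, 0.0647 and 0.0404 in kidney (log2 fold change -11.25 ± 0.20 SE, adjusted p = 8.68e-16). No kidney library reached the range of the liver libraries.

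Arginase, the last enzyme of the urea cycle, was split between its forms. Arg1 stood at 602, 734, 867 and 764 RPKM in liver and at 0.0210, 0.0576, 0.0718, 0.0807 and 0.0378 in kidney. Arg2, the mitochondrial form, stood at 1.44 ± 0.375 in kidney and 0.116 ± 0.0841 in liver (log2 fold change 3.56 ± 0.40 SE; 4.27 without mouse 19). Arg1 was 3.44% ± 0.970 of the pair in kidney and rounded to 100% in liver.

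The enzymes at the ends of glycolysis differed too. Hk1, a hexokinase of high affinity, stood at 10.9, 9.82, 10.5, 9.81 and 12.3 in kidney and at 0.570, 0.497, 0.418 and 0.609 in liver. The difference was called and its estimate met the 8-fold rule, with a log2 fold change of 4.35 ± 0.13 SE.

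At pyruvate kinase, Pklr made up 90.1% ± 1.66 of the pair in liver and 11.1% ± 0.873 in kidney, where Pkm stood at 44.0 ± 3.41 RPKM. At lactate dehydrogenase, Ldhb, whose tetramer favours the use of lactate, stood at 659, 585, 573, 554 and 608 RPKM in kidney and at 2.73, 3.40, 1.84 and 2.24 in liver (log2 fold change 7.87 ± 0.18 SE, adjusted p = 1.32e-14). Ldha, whose tetramer favours the making of lactate, was abundant in both, at 403 ± 39.9 in liver and 173 ± 14.1 in kidney, and was 99.4% ± 0.236 of the pair in liver and 22.4% ± 0.505 in kidney.

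Glycogen enzymes crossed less completely, and the kidney held a sizeable share of the liver forms. Gys2, liver glycogen synthase, was 98.5% ± 0.736 of its pair in liver and 46.1% ± 3.46 in kidney, where Gys1 stood at 6.83 ± 0.585 RPKM and Gys2 at 5.86. Pygl, liver glycogen phosphorylase, was 98.7% ± 0.414 of its pair in liver and 33.6% ± 1.71 in kidney. Both kidney forms passed the test, with log2 fold changes of 3.00 ± 0.15 SE for Gys1 and 2.31 ± 0.16 SE for Pygb.

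Channels and carriers crossed as well. Aqp9, the glycerol channel of hepatocytes, stood at 154, 157, 142 and 142 RPKM in liver and at 0.0508, 0.0361, 0.0450, 0.0434 and 0 in kidney. Aqp3, the glycerol channel of principal cells, stood at 43.2, 36.6, 37.6, 34.0 and 40.9 in kidney, with 3 counts in all liver libraries together. Slco1b2, the hepatic uptake carrier for organic anions, stood at 260 ± 27.1 in liver against 0.00659 ± 0.00941 in kidney, and its kidney relative Slco4c1 at 4.98 ± 0.580 in kidney with 3 counts in liver.

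Fxyd2, the gamma subunit of the sodium pump, stood at 492 ± 35.4 RPKM in kidney and 0.0653 ± 0.0287 in liver, while Fxyd1, which regulates the same pump, stood at 163 ± 33.6 in liver and 2.97 in kidney. Slc10a1, which takes up bile acids into hepatocytes, was 97.6% ± 1.23 of its pair in liver and 2.47% ± 0.864 in kidney. Slc10a2, the apical bile acid carrier of gut and kidney, was higher in kidney by a log2 fold change of 1.63 ± 0.33 SE.

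Corticosteroid handling was divided as well. Hsd11b1, which regenerates active glucocorticoid, stood at 166 ± 8.34 RPKM in liver and 17.4 in kidney. Hsd11b2, which inactivates it and so protects the mineralocorticoid receptor, stood at 83.6, 79.4, 77.0, 64.4 and 83.5 in kidney, with no count in liver, at least 4130-fold higher in kidney. In bile acid and fatty acid activation, Slc27a5 stood at 503 ± 36.4 in liver and 0.0569 in kidney, while Slc27a2 was high in both, at 743 ± 44.3 in kidney and 347 ± 42.7 in liver.

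Slc22a2, an organic cation carrier of the tubule, stood at 104 ± 3.74 RPKM in kidney with no count in liver.

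The glucose carriers kept 1 dominant gene: Slc2a2 was 93.0% ± 1.67 of its pair in liver and 65.8% ± 4.59 in kidney. Of the 6 pairs that did not cross, 5 were Agxt with Agxt2, Acacb with Acaca, Pfkl with Pfkm, Atp6v1b2 with Atp6v1b1, and Abcc2 with Abcc4. Agxt, which detoxifies glyoxylate, stood at 367 ± 78.2 in liver with 2 counts in all kidney libraries together, and Agxt2, named as the kidney form, was also higher in liver (76.0 ± 1.78 against 26.6 ± 1.61; log2 fold change -1.52 ± 0.07 SE). Acaca and Acacb, which make malonyl-CoA, were both higher in liver. Atp6v1b1, the proton pump subunit of intercalated cells, was at least 2330-fold higher in kidney, and Atp6v1b2, the common subunit, was also higher there (log2 fold change 2.04 ± 0.10 SE).

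**Figure D3:**
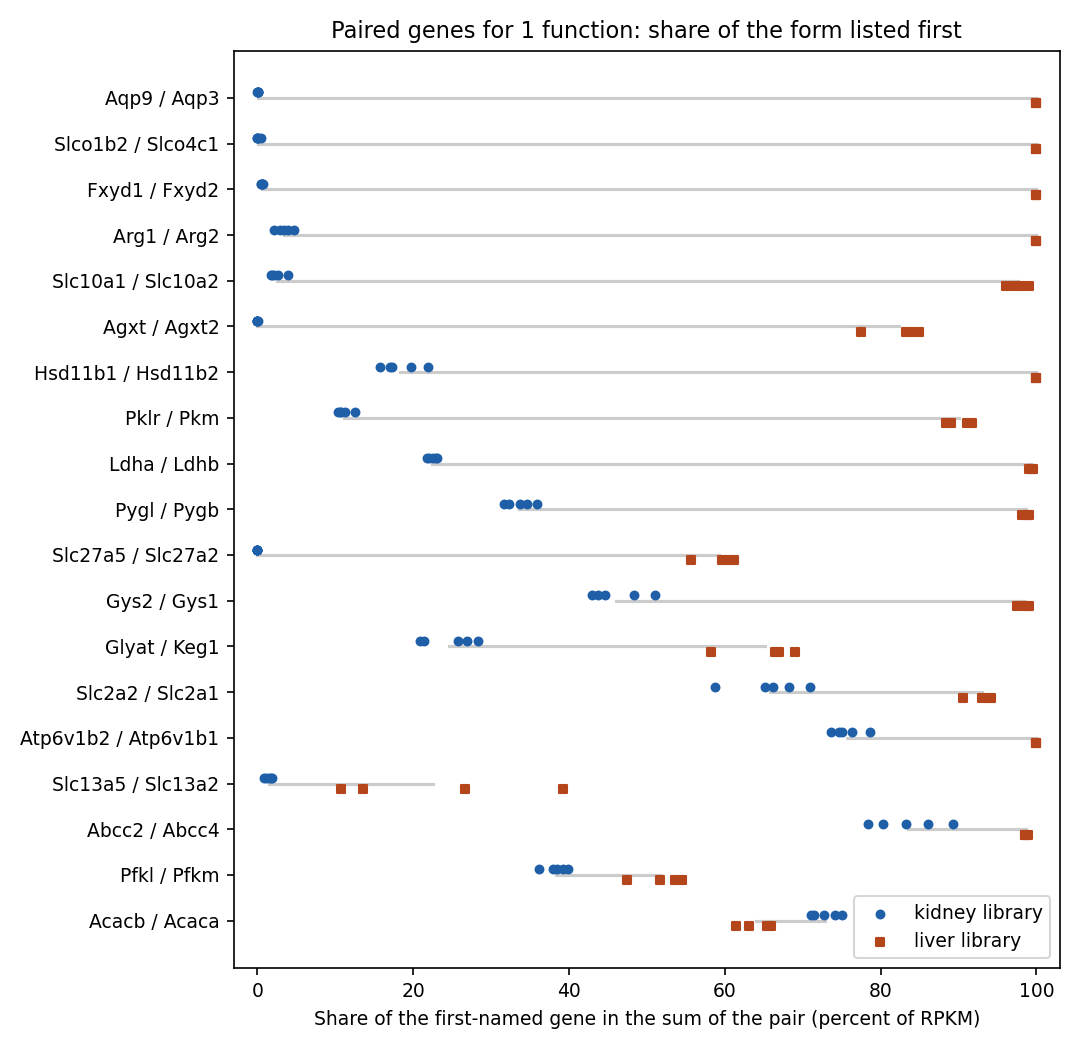
Share of the first-named gene in the summed RPKM of 19 pairs, in percent, with 1 blue circle per kidney library and 1 red square per liver library, and a grey line between the means. Libraries of the organs stand at opposite ends for Aqp9 with Aqp3 and Fxyd1 with Fxyd2, and on the same side for Slc2a2 with Slc2a1.

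Several hormone and metabolite pathways pass from 1 organ to the other. Of 20 genes listed for such steps, 18 were tested, 10 higher in liver and 8 in kidney, with 8 at 8-fold in each direction. Vitamin D is hydroxylated first in liver and then in kidney. Cyp2r1, of the first step, stood at 9.55 ± 1.64 RPKM in liver and 0.488 ± 0.118 in kidney (log2 fold change -4.29 ± 0.18 SE, adjusted p = 1.47e-11). Cyp27b1, of the activating step, stood at 1.31, 1.74, 1.88, 1.65 and 2.73 in kidney, with 4 counts in all liver libraries together. The kidney of mouse 24 was the highest for Cyp27b1.

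Cyp24a1, which breaks the active vitamin down, stood at 12.9, 12.2, 20.8, 11.1 and 2.17 RPKM in kidney and had no count in liver. The kidney of mouse 24 was the lowest for Cyp24a1. Vdr, the vitamin D receptor, stood at 35.9 ± 1.55 in kidney, with 2 counts in liver. Lrp2, megalin, which takes up the filtered vitamin with its carrier, stood at 73.9 ± 8.47 in kidney and 0.122 ± 0.0672 in liver.

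The renin-angiotensin system was split between its substrate and its enzymes. Agt, angiotensinogen, stood at 488, 514, 498 and 450 RPKM in liver and at 35.4, 28.1, 26.2, 33.3 and 28.9 in kidney (log2 fold change -4.00 ± 0.11 SE, adjusted p = 8.73e-14). Ren1, renin, stood at 39.3, 34.4, 34.5, 32.3 and 29.8 in kidney, with 1 count in all liver libraries. Ace, the converting enzyme, stood at 31.3 ± 3.18 in kidney and 0.288 ± 0.0935 in liver.

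Liver hormones followed the same division. Igf1, the growth factor released by liver, stood at 64.2 ± 5.19 RPKM in liver and 1.22 ± 0.118 in kidney. Hamp, hepcidin, the hormone that limits iron release, varied among the livers: it stood at 1967, 2596, 5866 and 5698 RPKM there and had 6 counts in all kidney libraries together. Thpo, thrombopoietin, was shared, at 11.3 ± 2.94 in liver and 3.67 ± 0.438 in kidney (log2 fold change -1.62 ± 0.16 SE, adjusted p = 2.58e-07). Kl, klotho, the coreceptor for a phosphate-lowering hormone, stood at 60.7, 59.0, 60.9, 54.0 and 72.3 in kidney and was at least 16600-fold higher there. Epo, erythropoietin, fell under the filter, with 42 counts in kidney and 1 in liver.

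Inositol and ascorbate met opposite fates. Gulo, the last enzyme of vitamin C synthesis in mice, stood at 300 ± 35 RPKM in liver and 0.115 ± 0.0778 in kidney. Miox, which consumes inositol, had 12 counts in all liver libraries together. Bbox1, the last step of carnitine synthesis, stood at 33.0 ± 1.26 in liver and 0.145 ± 0.0564 in kidney. Gamt, the last step of creatine synthesis, stood at 219 ± 56.8 in liver and 15.2 ± 0.709 in kidney. Fgfr4, the hepatic receptor for a bile acid signal, was nearly shared, with a log2 fold change of -0.71 ± 0.09 SE that turned to 0.18 with library totals.

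**Figure D4:**
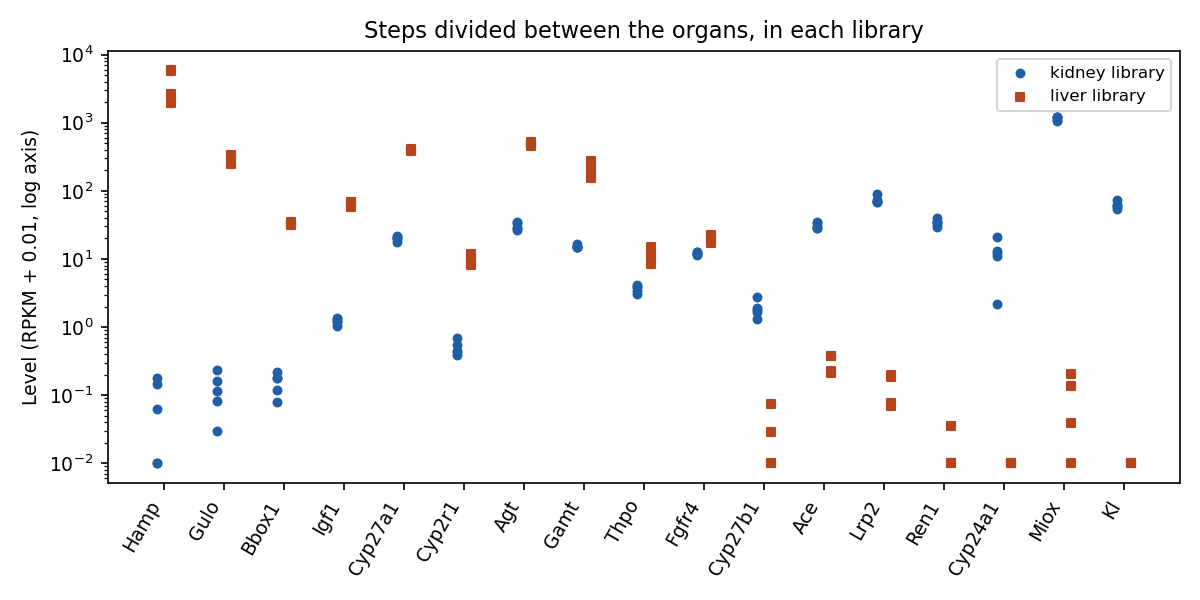
Level of 17 tested genes of the divided steps in the 5 kidney libraries (blue circles) and 4 liver libraries (red squares), in RPKM plus 0.01 on a log axis, ordered by fold change from liver to kidney. The libraries of the organs do not overlap for any of the 17 genes drawn, and Cyp24a1 shows the kidney of mouse 24 at 2.17 below the other kidneys.

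Nitrogen metabolism leaned to liver. All 8 urea cycle genes were higher in liver, 4 at 8-fold. For this and the metabolic lists that follow, 33.9% of all tested genes were higher in liver and 41.6% in kidney. The shares at 8-fold were 5.58% and 12.8%. Cps1, which feeds ammonia into the cycle, stood at 681 ± 110 RPKM in liver and 0.0181 ± 0.0114 in kidney, and Otc, the next enzyme, at 158 ± 9.12 with no count in kidney, at least 46300-fold higher in liver. Ass1 and Asl, which the kidney uses to make arginine, were the exceptions in level: Ass1 stood at 927 ± 105 in kidney against 1956 ± 276 in liver (log2 fold change -1.08 ± 0.12 SE; -0.19 with library totals, where it was not called), and Asl at 31.7 ± 4.01 against 179 ± 16.3. With library totals 7 of the 8 genes were called higher in liver.

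For the breakdown of phenylalanine, tyrosine, tryptophan and histidine, 15 of 16 genes were higher in liver, 8 at 8-fold. Tat, tyrosine aminotransferase, stood at 661 ± 102 RPKM in liver with 6 counts in all kidney libraries together. Acmsd, which diverts tryptophan from nicotinamide synthesis, was the 1 gene higher in kidney, at 51.7 ± 4.94 against 19 ± 3.46.

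In methionine, serine, glycine and proline metabolism, 17 of 22 genes were higher in liver and 5 in kidney. Mat1a, the hepatic enzyme for S-adenosylmethionine, stood at 671 ± 165 in liver with 7 counts in kidney, and Gnmt, which consumes it, at 2523 ± 255 against 13.9 ± 1.76. Dao, which oxidises D-amino acids, was a kidney gene, at 110 ± 6.32 with no count in liver, at least 9390-fold higher in kidney. Of the 8 genes of glutamine use and ammonia handling, 4 were higher in each organ; Slc38a3, a glutamine carrier, stood at 352 ± 75.4 in liver and 7.07 ± 0.844 in kidney.

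Ketone bodies are made in liver and burned elsewhere. Oxct1, which starts their use, stood at 281, 260, 270, 263 and 284 in kidney and at 1.09, 1.24, 1.5 and 1.46 in liver (log2 fold change 7.68 ± 0.13 SE, adjusted p = 9.07e-16). Acat1, which works in both directions, differed less, at 166 ± 13.3 in kidney and 135 ± 6.89 in liver (log2 fold change 0.30 ± 0.09 SE, adjusted p = 0.00618).

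Gluconeogenesis, the pathway both organs run, differed by small amounts. Of 13 genes, 10 were higher in liver, 2 in kidney and 1 was not called, whereas with library totals 5 were higher in each. Pck1, the control step, stood at 203, 254, 330, 452 and 382 RPKM in kidney and at 684, 725, 1459 and 526 in liver, without overlap (log2 fold change -1.39 ± 0.33 SE, adjusted p = 0.00345; -0.50 and 0.183 with library totals). Fbp1, a later step, stood at 420 ± 62.3 in kidney and 878 ± 97.2 in liver, a difference that was not called with library totals (adjusted p = 0.151). G6pc, which releases free glucose, had a log2 fold change of -0.84 ± 0.15 SE that became 0.05 with library totals. The gap was larger for alanine entry: Gpt, alanine aminotransferase, stood at 141 ± 23.2 in liver and 5.83 ± 0.289 in kidney.

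Aldoa, an aldolase of most tissues, was higher in kidney, at 266 ± 12.4 against 57.7 ± 4.91 (log2 fold change 2.21 ± 0.09 SE).

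Across the other energy pathways the direction rested on the scale. Of 40 nuclear genes of the respiratory chain, 17 were higher in liver, 4 in kidney and 19 were not called, with no gene at 8-fold, whereas with library totals 35 were higher in kidney and 0 in liver. Cox4i1, a subunit of cytochrome oxidase, moved from a log2 fold change of -0.53 to 0.36. In the TCA cycle 9 of 18 genes were higher in kidney and 4 in liver under TMM, and 16 and 0 with library totals. Over all tested genes, 41.6% were higher in kidney and 33.9% in liver under TMM, and 71.9% and 13.4% with library totals. The shift toward kidney was thus general and not particular to these lists. Idh2, mitochondrial isocitrate dehydrogenase, was higher in kidney under both scales (log2 fold change 1.21 ± 0.10 SE; 2.10 with library totals).

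In fatty acid oxidation 18 of 23 genes were higher in liver and 2 in kidney. Fabp1, the liver fatty acid binding protein, stood at 10964, 9655, 7726 and 4588 RPKM in liver and at 0.887, 0.309, 0.386, 0.163 and 0.406 in kidney. Acaa2, a thiolase, stood at 880 ± 89.0 in liver and 112 ± 12.6 in kidney. Acadm, the medium-chain dehydrogenase, was higher in kidney, at 183 ± 11.8 against 107 ± 11.8 (log2 fold change 0.77 ± 0.10 SE). With library totals the counts were 11 higher in liver and 8 in kidney.

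Lipid synthesis was weighted to liver under both scales. Of 13 genes of fatty acid and triglyceride synthesis, 12 were higher in liver, and of 19 genes of cholesterol synthesis, 17 were; with library totals these counts were 11 and 11. Scd1, the stearoyl-CoA desaturase, stood at 1194 ± 96.9 RPKM in liver and 47.2 ± 8.96 in kidney (log2 fold change -4.66 ± 0.15 SE). Sc5d, a late enzyme of cholesterol synthesis, stood at 168 ± 19.8 and 8.76 ± 0.674. Bile acid synthesis and transport had 19 of 24 genes higher in liver and 3 in kidney. Cyp8b1, which sets the share of cholic acid, stood at 338 ± 54.1 in liver and 0.0518 ± 0.0292 in kidney, while Slc51b, an export subunit, was higher in kidney, at 21.8 ± 1.04 against 0.289 ± 0.260.

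**Figure D5:**
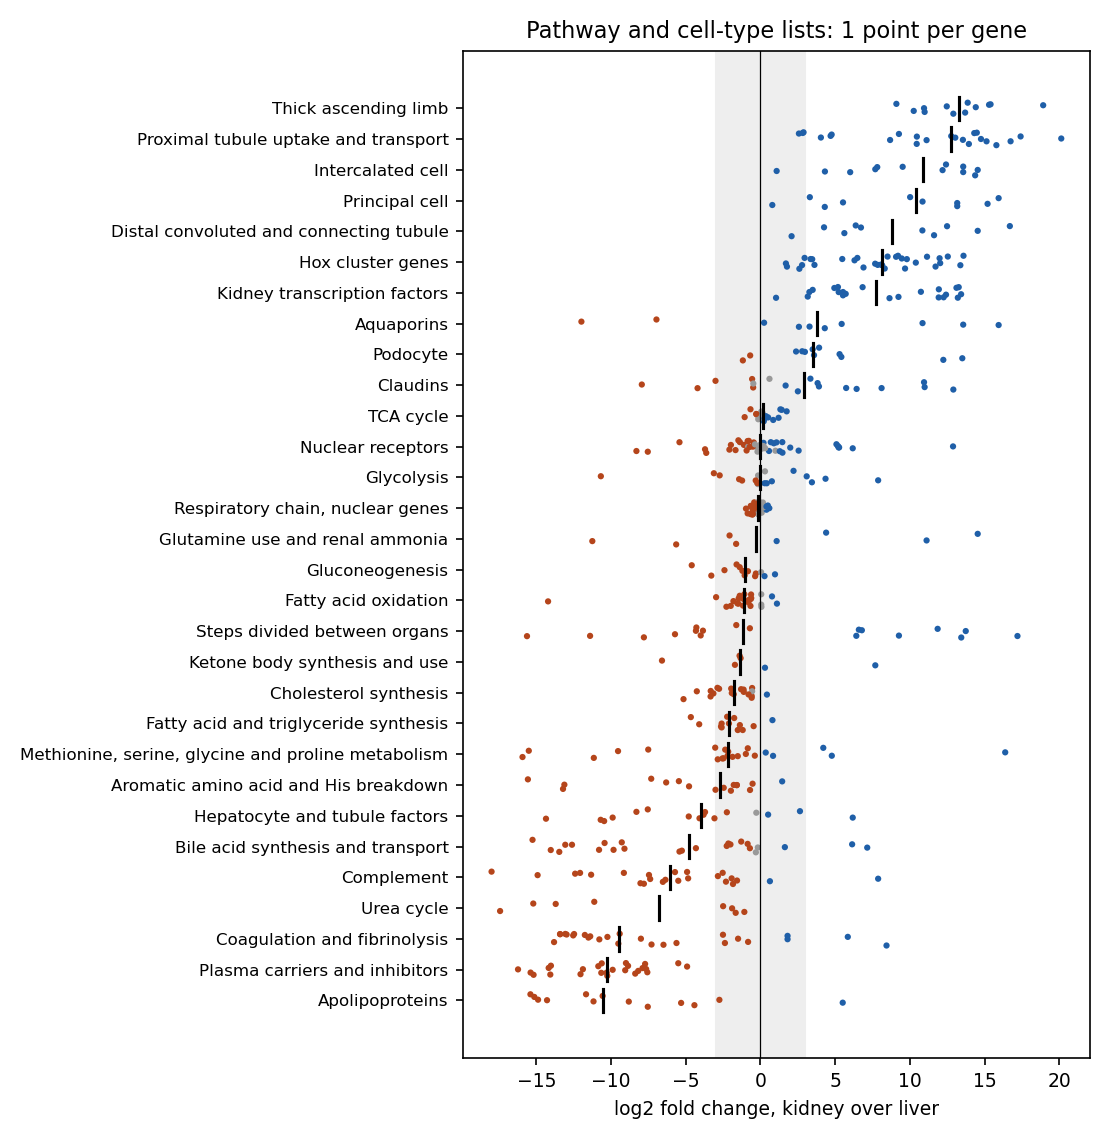
log2 fold change, kidney over liver, of every tested gene in 30 pathway and cell-type lists, with the median as a black bar; blue and red points are called higher in kidney and in liver, grey points are not called, and the grey band marks differences under 8-fold. Medians run from 13.29 for the thick ascending limb to -10.56 for apolipoproteins, with the TCA cycle, glycolysis and the respiratory chain near 0.

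Gene families that carry solutes or metabolise foreign compounds are given beside the shares of all tested genes, 41.6% higher in kidney and 33.9% in liver, with 12.8% and 5.58% at 8-fold. Of 326 tested solute carrier genes (Slc and Slco), 186 were higher in kidney and 96 in liver, with 98 and 22 at 8-fold. With library totals these counts were 248 and 53. All 10 Slc5a genes, the family of sodium-glucose cotransporters, were higher in kidney, 9 at 8-fold. Of 58 tested potassium channel genes (Kcn), 44 were higher in kidney and 7 in liver, and with library totals 50 and 3. Of 41 tested Cyp2 genes, the largest family of drug-metabolising cytochromes P450, 30 were higher in liver and 8 in kidney, 27 and 6 at 8-fold, and with library totals 29 and 12. Of 10 tested aquaporins, 8 were higher in kidney and 2, Aqp8 and Aqp9, in liver.

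Nuclear receptors showed no lean: of 43 tested, 16 were higher in kidney, 17 in liver and 10 were not called, with 6 and 5 at 8-fold. Vdr was the kidney gene of the highest level among them. Rxra, the common partner of many receptors, stood at 82.6 ± 18.8 RPKM in liver and 21 ± 2.17 in kidney, and Nr1h3, an oxysterol receptor, at 70.9 ± 5.66 and 16.8 ± 0.244. With library totals the counts were 26 and 10.

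Because whole tissue was sampled, fewer cells of a type and less RNA per cell cannot be told apart in any of these values. Markers of other cell types differed between the organs too. Their counts stand beside 33.9% of all tested genes higher in liver and 41.6% in kidney. All 6 Kupffer cell genes were higher in liver, and Clec4f, which defines these resident macrophages, had no count in kidney, at least 9230-fold higher in liver. All 8 genes of the liver sinusoidal endothelium were higher in liver, and with library totals 7 were higher in liver and 1 in kidney. Of 6 bile duct genes 5 were higher in kidney, whose tubule epithelium is also known to express them: Spp1, osteopontin, stood at 322 ± 23.7 RPKM in kidney and 36.7 ± 6.44 in liver, while Sox9, a duct factor, was higher in liver, at 3.58 ± 1.30 against 0.123 ± 0.0502. All 6 urothelial genes were higher in kidney, with a summed level of 10.7 to 13.3 against 0.639 to 1.30.

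Red cell genes were higher in liver, 5 of 5 under TMM and 1 of 5 with library totals. Alas2, of haem synthesis in red cell precursors, was the 1 that kept its call, with a range of 56.8 to 70.5 RPKM in liver and 5.88 to 7.91 in kidney. Of the 8 skeletal muscle genes 5 could be tested, and 0 were called by edgeR, 0 by DESeq2 and 0 at an unadjusted p under 0.05, whereas with library totals 1 was called higher in kidney. Of 6 adrenal and 6 pancreas genes, 2 of each could be tested. Star, which moves cholesterol into mitochondria for steroid synthesis, stood at 1.05 ± 0.138 RPKM in kidney and 0.765 ± 0.0837 in liver (log2 fold change 0.45 ± 0.16 SE, adjusted p = 0.0204; 0.0503 without mouse 19 and 0.0931 without mouse 20). Cela1, an elastase, held nearly all of the pancreas list's summed level, at 43.2 ± 4.75 in kidney and 38.5 ± 5.12 in liver, and was not called (adjusted p = 0.165), except higher in kidney with library totals (log2 fold change 1.06) and the upper quartile (0.28). Cela2a, another elastase, was higher in liver at 8-fold, at 1.51 ± 0.376 against 0.00619 ± 0.0138. Among the defining genes, Cyp11b1 had 3 counts in kidney and 0 in liver, Cpa1 had 0 in kidney and 35 in liver, and Cyp21a1 had 5 in kidney and 184 in liver.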

How the data were processed

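The authors deposited unnormalized read counts of 26506 genes, as 1 table covering all 19 libraries. Per the submitters' processing notes, Trim Galore, STAR, featureCounts and DESeq2 were used with the build GRCm38; versions, annotation and strand setting are not stated in those notes, and overlapping and antisense genes could share reads. Symbols, positions and exon lengths came from GENCODE mouse release M21, which matched 26417 identifiers; 89 had no match. Promoter windows came from RefSeq (GRCm38.p6).

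Groups follow the tissue and genotype labels. Wild-type kidney and liver were compared with edgeR 4.0.16 in R 4.3.3: quasi-likelihood test, robust dispersions, TMM scaling, filterByExpr with a minimum count of 10, two-sided p adjusted by the Benjamini-Hochberg method. Intervals cover 95%, and SE comes from the same fit. The knockout libraries were fitted alone, over 16823 genes. On simulated counts of 16978 genes with 200 changed, the wild-type test recovered 26%, 66%, 92% and 100% of changes of 1.5, 2, 4 and 8-fold, with 8 false calls. Performance with most genes differing, as between these organs (75.4% called), was not tested. Alternatives were DESeq2 1.42.0, limma voom (3.58.1), other scalings and filters, glmTreat, a block and leaving out each mouse; those on the count of crossed pairs were chosen after seeing the data.

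The numbers were taken to pair the samples: deviations from the tissue means of a kidney and a liver with the same number correlated at 0.158, 0.138, 0.181 and 0.18, all over 0.1; the 16 pairs with different numbers ran from -0.178 to 0.134. The labels do not state the pairing, and the block was therefore an alternative.

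The comparison, the 45 lists with 659 genes (640 matched) and the 25 pairs were chosen with earlier results of these data known. The text names Alb, Umod, the paired genes and the divided steps, up to 3 called genes of highest level per list with the 1 highest against its direction, the 10 most abundant genes at 8-fold per tissue, and the 5 most abundant genes of equal level. Some genes are not reported here. Alas2, Aqp8, Asl, Cela1, Cela2a, Cpa1, Cyp11b1, Fdps, Foxa2, Foxa3, Foxi1, Gpt, H2afy, Hnf4a, Hnf4g, Hoxa5, Hoxa13, Hoxb4, Hoxb5, Hoxd1, Onecut2, Otc, Pax2, Star and the genes shown only for their promoters were named after their values were seen.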

Additional observations from a re-analysis of the deposited data

Results flagged for a closer look

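Among 304 sets of 1 gene in the libraries of 1 tissue, 28 held a library whose distance from the others exceeded the 95% value of Dixon's test, which chance gives in about 1 in 20 sets of continuous values. In 9 of the 28 every other library stood at 0, so that a few counts passed by construction and that rate does not apply. The liver of mouse 22 was the library set apart in 7 of them, 4 being of that kind, and the kidney of mouse 24 in 5.

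In the kidney of mouse 24, Lrp2 stood at 88.5 RPKM (next 73.3), Acadm at 204 (183), H2afy at 7.25 (9.17), Slco1b2 at 0.0228 (0.00541) and Aqp9 at 0 (0.0361). In the kidney of mouse 19, Gpx3 stood at 11261 RPKM (9851), Tmbim6 at 529 (469), Apoa1 at 1.13 (0.704) and Agxt at 0.0275 (0). In the kidney of mouse 20, Slc51b stood at 23.7 RPKM (21.6) and Cyp21a1 at 0.04 (0.0105). In the kidney of mouse 22, Cela2a stood at 0.0309 RPKM (0).

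In the liver of mouse 22, Abcc2 stood at 47.2 RPKM (36.4), Slc2a1 at 5.23 (3.25), Cpa1 at 0.8 (0.0479), Hnf4g at 0.0645 (0), Epo at 0.0496 (0), Slco4c1 at 0.0259 (0) and Ren1 at 0.0256 (0). In the liver of mouse 20, Cebpa stood at 341 RPKM (297), S100g at 1.89 (0.353), Pygb at 1.67 (1.08), Apod at 0.0555 (0) and Vdr at 0.0169 (0). In the liver of mouse 24, Keg1 stood at 69.4 RPKM (42.9), Cyp21a1 at 2.96 (0.733), Fxyd2 at 0.108 (0.053) and Slc12a1 at 0.0282 (0). Values of a few hundredths rest on few counts.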

How the results depend on the processing

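The counts of genes called and of those at 8-fold stayed within 1.5 times of the values above under every alternative but 2: the test for a fold above 2 called 6445 genes (4148 in kidney), and without a filter on low counts, over 26461 genes, 4934 were at 8-fold (3587 in kidney). With library totals 84.2% of calls were higher in kidney, against 55.1% with TMM and 59.9% with the upper quartile. Leaving out each mouse gave 12216 to 12995 calls and 3040 to 3329 at 8-fold. The count of crossed pairs ranged from 14, for the fold above 2, to 18.

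With the mouse number as a replicate block, 13057 genes were called, 3218 at 8-fold, and 12632 in the knockout libraries; among the genes named it changed the call of Glyat, Abcc2 and Uqcr10 and no other.

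With library totals the direction turned for Abcc2 (0.58), Cox4i1 (0.36), Fgfr4 (0.18), G6pc (0.05), Glyat (0.68), Hnf4a (0.61), H2afy (0.17), Inmt (0.77), Pfkl (0.87), Tmbim6 (0.64) and Uqcr10 (0.70). Pfkl, at -0.02, also turned with the upper quartile (0.09), without a filter (0.02) and when mice were left out singly (-0.09 to 0.02), where Mdh1 ran from -0.00 to 0.07. Of 1440 list counts under the alternatives, 85 moved by more than 1.5 times, 31 of them with the fold above 2 and 29 with library totals. The 3 composition measures kept their direction and stayed under 0.05 in every alternative run. Genes under the filter, such as Epo, were too shallow to test.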

Other observations

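Lists of junction, vessel and other genes are given beside the shares of all tested genes, 41.6% higher in kidney and 33.9% in liver. Of 18 tested claudins, which seal epithelia, 11 were higher in kidney and 5 in liver, and 14 and 3 with library totals. Cldn2, of the leaky proximal tubule, stood at 106 ± 8.49 RPKM in kidney and 33.1 ± 2.15 in liver, Cldn10 at 64.1 ± 8.34 against 0.0336 ± 0.0359, and Cldn3 at 7.88 ± 1.13 against 146 ± 22.1. Of 8 endothelial genes common to both organs, 5 were higher in kidney and 0 in liver, and 8 and 0 with library totals. Pecam1, 1 of those higher in kidney, stood at 8.23 ± 0.488 against 3.62 ± 0.314. Of 6 genes of renal and glomerular endothelium, 5 were higher in kidney. Of 6 stellate cell genes, 5 were higher in liver, and 3 with library totals. Lymphocyte genes were 1 higher in kidney, 3 in liver and 5 not called, those of macrophages in both organs 2, 4 and 1, and those of cell division 1, 2 and 5. With library totals the direction turned: 5 lymphocyte genes were higher in kidney and 0 in liver, 3 and 2 macrophage genes, and 5 and 0 cell division genes. Glycolysis genes were 8 higher in kidney, 7 in liver and 6 not called, and 16 and 5 with library totals.

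Genes of high and near-equal level were Tmbim6, a membrane protein that restrains cell death, Inmt, a methyltransferase, Uqcr10, a respiratory chain subunit, and Mdh1, malate dehydrogenase. Their log2 fold changes were -0.24, -0.12, -0.19 and 0.04, and became 0.64, 0.77, 0.70 and 0.93 with library totals. Tmbim6 was called (edgeR, adjusted p = 0.04), but not without mouse 20, 22 or 23 (0.158, 0.103 and 0.077), and Inmt and Mdh1 were not. Uqcr10 was called higher in liver only with limma voom, without mouse 22 and with the mouse number as a block (edgeR, adjusted p = 0.0342).

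Genes at 8-fold were not all protein coding. Of 2320 tested genes of other classes, 413 were at 8-fold in kidney and 181 in liver. Of 581 tested pseudogenes the counts were 60 and 45, and of 14527 protein-coding genes 1763 and 747. The shares of all tested genes were 12.8% and 5.58%.

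Gatm, which carries out the first step of creatine synthesis and is known as a kidney enzyme, had 19 counts in the 5 kidney libraries together and 0 in the liver libraries, and was not tested. Fdps, an enzyme of cholesterol synthesis, had 23 counts in kidney and 340 in liver. No level is drawn from either, as the annotation behind the counts is unknown here.

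H2afy itself was higher in liver under TMM, at 15.2 ± 3.00 RPKM against 9.23 ± 1.15, and its log2 fold change, -0.72 ± 0.13 SE (edgeR, adjusted p = 0.000212), turned to 0.17 with library totals.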
